A study of Mus musculus with 12 samples.

Results

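The 9 genes described here encode receptors that bind immunoglobulin or the small fragments released when complement is activated, together with a signalling chain that several of them need. They are Fcgr1, Fcgr2b, Fcgr3, Fcgr4, Fcer1g, Fcer1a, C5ar1, C5ar2 and C3ar1. They were taken as a fixed list of symbols, matched to Ensembl identifiers in a table of 53801 genes, and all 9 were found, counted and tested. RNA-seq counts were available for eosinophils of 4 groups with 3 libraries each, namely control and Atg5-knockout eosinophils from bone marrow and from blood. Both genotypes carried the Il5tg transgene, in which the Cd3d promoter drives interleukin-5 in T cells, and both carried 1 copy of eoCre, a Cre recombinase knocked into the eosinophil peroxidase gene Epx. The knockout mice were in addition Atg5 flox/flox, so that Atg5, a gene needed for autophagy, was deleted in cells in which Epx is active, while the control mice were not floxed. Eosinophils were enriched by depleting other cells with antibodies, among them one to Ly6G, a surface protein of neutrophils. Before this step marrow cells were flushed out and filtered, while blood was spun over a density medium and its red cells lysed with cold water. Differences between tissues therefore cannot be told apart from differences in preparation. The study used 3 mice per genotype, the ages of the mice are not given in the sources used here, and the labels do not say which blood and marrow libraries came from 1 mouse, so the p-values measure the spread between these libraries.

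Fc receptors let a cell respond to antigen that antibody has coated. The receptors for IgG encoded by Fcgr1, Fcgr3 and Fcgr4 are activating: they reach the cell surface with the common gamma chain encoded by Fcer1g, whose cytoplasmic tail holds an immunoreceptor tyrosine-based activation motif (ITAM) that recruits the kinase Syk once it is phosphorylated. Fcgr2b encodes the inhibitory IgG receptor, which carries its own inhibition motif (ITIM) and recruits the phosphatase SHIP. Fcer1a encodes the IgE-binding chain of the high-affinity IgE receptor, which is best known from mast cells and basophils and also needs the gamma chain. C5ar1 and C3ar1 encode the G protein-coupled receptors for the anaphylatoxins C5a and C3a, which attract and activate granulocytes, and C5ar2 encodes a second C5a receptor that does not couple to G proteins.

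The sequences that set activating apart from inhibitory signalling are short. A search of the 9 translated coding sequences for a tyrosine pair at ITAM spacing found it in 1 member, Fcer1g, at residues 65 to 79 of 86, and the ITIM of Fcgr2b lies at residues 270 to 275 of 293. The coding stretches are shown with the tyrosine codons in capitals, read from the GRCm39 transcripts.
Fcer1g ITAM: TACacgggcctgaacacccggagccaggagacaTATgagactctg
Fcgr2b ITIM: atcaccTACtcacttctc

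Most of the members sit close together. In the coordinates of the count table (GRCm38), Fcgr2b (chr1:170958617-170976547), Fcgr4 (chr1:171018920-171029761), Fcgr3 (chr1:171051174-171064935) and Fcer1g (chr1:171229572-171234365) lie within 275749 bases of chromosome 1, and Fcer1a lies further along it (chr1:173221284-173227214). C5ar2 (chr7:16234585-16244154) and C5ar1 (chr7:16246743-16259540) are neighbours on chromosome 7, 2588 bases apart. Fcgr1 is on chromosome 3 (chr3:96282909-96293969) and C3ar1 on chromosome 6 (chr6:122847138-122856161). The outer parts of Fcgr2b and Fcgr3 are near-identical in places, so that a read can match both. Of the 100-base windows of the canonical Fcgr3 transcript, 3.04% also occur in Fcgr2b and in no other gene, and for Fcgr2b 10.4% of windows occur elsewhere, most of them outside its coding part. C5ar2 shares 1.01% of its windows and the other 6 members share none. The longest coding run that Fcgr2b and Fcgr3 have in common is 129 bases long, from coding base 278 to 406 of Fcgr2b and 263 to 391 of Fcgr3, and is shown because counts of these 2 genes are uncertain to that extent.
Fcgr2b and Fcgr3: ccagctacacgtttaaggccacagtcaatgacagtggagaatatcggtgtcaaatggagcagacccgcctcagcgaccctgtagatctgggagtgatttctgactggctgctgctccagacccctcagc

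The libraries held 18885052 to 30270166 counts. Markers of the labelled cell type were present in every library, with Siglecf at 345 to 931 and Ccr3 at 586 to 1976 CPM (counts relative to the library total, after TMM scaling of all 12 libraries), and Epx at 3350 to 5140 CPM in bone marrow and 265 to 946 in blood. The 10 eosinophil markers summed to 72237 to 94536.5 CPM in bone marrow and 17483 to 47259 in blood. In each genotype 6 of them were called lower and 2 higher in blood (list medians -0.69 in control and -1.11 in knockout mice). The blood libraries also differed from bone marrow in markers of other cells. The 6 NK cell markers summed to 301 to 609 CPM in blood and 2.25 to 5.27 in bone marrow, and the NK marker Ncr1 was below 1 CPM in all bone marrow libraries. Both blood libraries numbered 1 stood apart, with B cell markers summing to 1267 and 2161 CPM against 178 to 425 in the other blood libraries and T cell markers to 149 and 234 against 14.1 to 30.6. Red cell markers took 14.6% of the counts of control blood library 1. Atg5 itself was at 30.6 to 33.9 CPM in knockout and 40.5 to 45.4 in control bone marrow, and at 36.7 to 52.5 and 40.1 to 58.8 in blood. These sums over all exons include exons outside the floxed part, so they do not check the deletion.

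**Figure D1:**
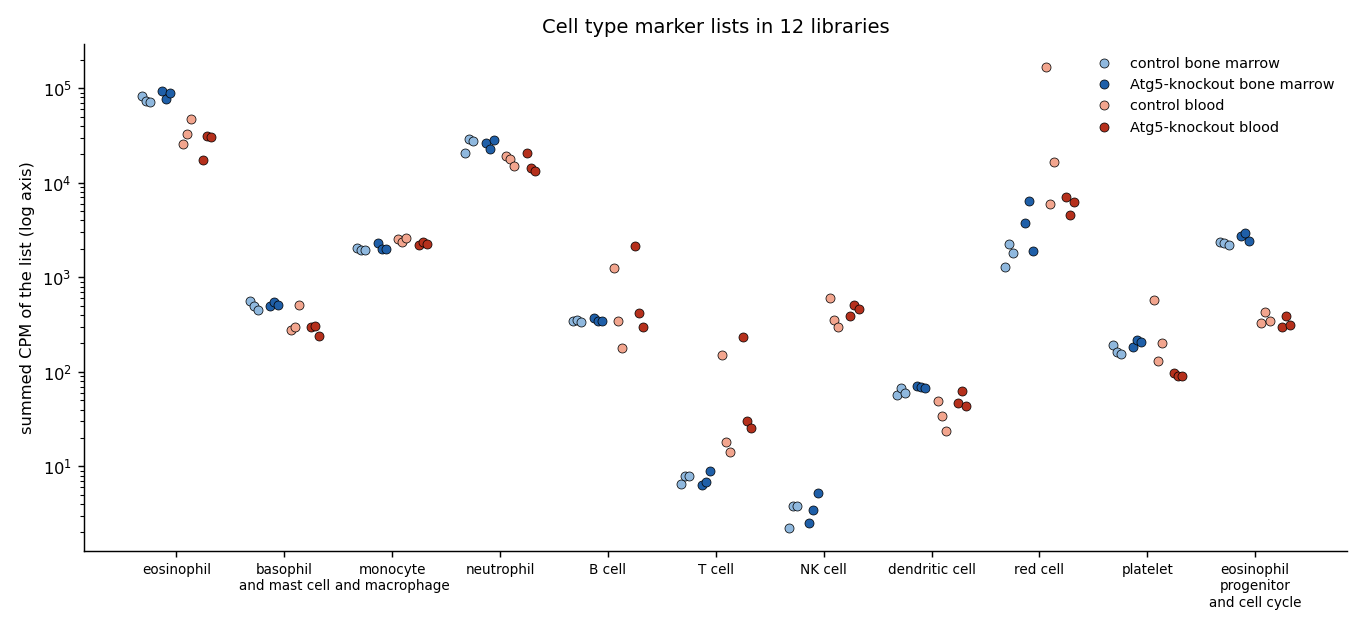
Summed CPM of 11 lists of cell type markers (log axis) in each of the 12 libraries, with the lists along the horizontal axis, 1 point per library and the 4 groups in colour. NK cell markers are at 301 to 609 CPM in blood and at most 5.27 in bone marrow, while both blood libraries numbered 1 hold the highest B and T cell sums.

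All 9 members were detected in all 12 libraries, over a wide range of levels. Per exon length (RPKM, the CPM per kilobase of exon), Fcer1g was the highest member in each of the 4 groups, at 493 ± 36.7 in control and 472 ± 57.3 in knockout bone marrow and at 894 ± 243 and 890 ± 203 in blood (mean ± SD, n = 3 for these and the following values). Fcgr3 came second at 282 ± 40.3, 325 ± 33.6, 408 ± 103 and 333 ± 56.2 RPKM in the same order of groups, and Fcgr2b after it at 50.9 ± 5.97, 48.4 ± 6.59, 105 ± 24.3 and 108 ± 20.1. The libraries of these 3 genes did not overlap with those of the next gene in any group. The anaphylatoxin receptors C3ar1 and C5ar1 followed in bone marrow, at 27.5 ± 3.49 and 18.5 ± 1.16 RPKM in control libraries.

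The low end of the order held Fcgr1, the high-affinity IgG receptor, Fcer1a and C5ar2. In control bone marrow these stood at 3.53 ± 0.761, 3.74 ± 0.340 and 3.74 ± 0.200 RPKM, and Fcgr4 at 4.57 ± 1.48, and each overlapped with its neighbour in the order. In blood Fcgr4 had left this group. It stood at 23.7 ± 3.96 RPKM in control and 33.9 ± 8.96 in knockout blood, above C3ar1 at 19.5 ± 11.7 and 12.8 ± 4.99. Fcgr4 and C3ar1 overlapped in control blood and did not overlap in knockout blood. Fcgr1, Fcer1a and C5ar2 stayed between 2.27 ± 0.526 and 3.81 ± 1.21 RPKM in blood, and neighbours among these 3 overlapped in both genotypes. Their counts were low, with 39 to 135 per library for Fcer1a and 88 to 375 for Fcgr1.

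**Figure D2:**
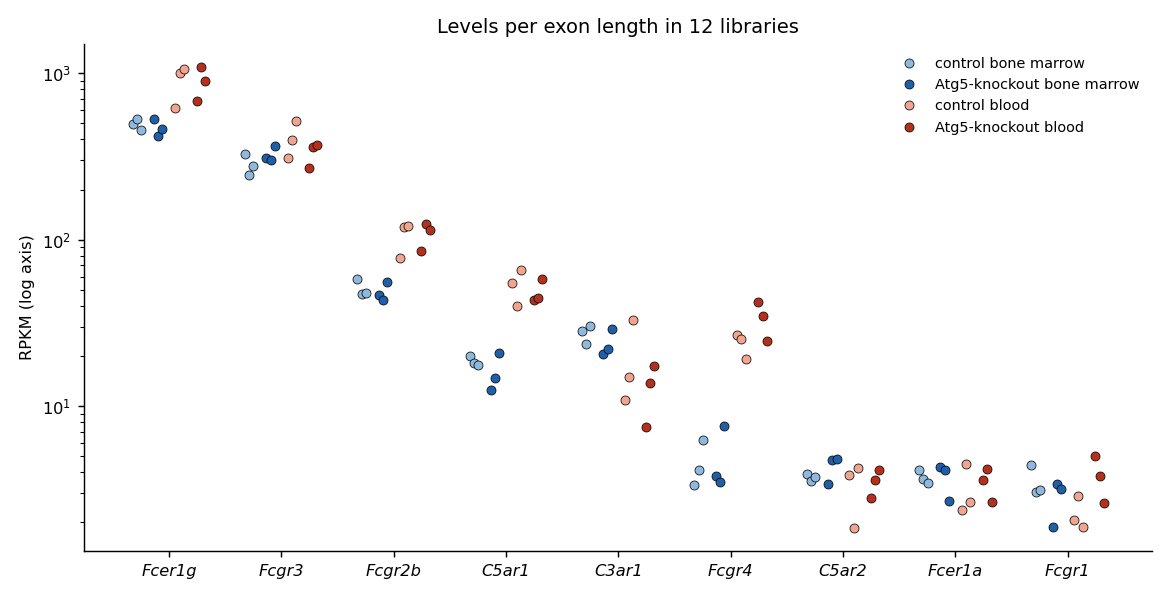
Level of each member per exon length (RPKM, log axis) in the 12 libraries, with 1 point per library and the 4 groups in colour, genes ordered by their mean. Fcer1g, Fcgr3 and Fcgr2b lead in every group, and Fcgr4 stands at 19.2 to 42.3 RPKM in blood against 3.37 to 7.63 in bone marrow.

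The comparison of blood with bone marrow asks how the receptors differ between the eosinophil preparations of the 2 tissues, which also differ in cell mixture. The 8 progenitor and cell cycle markers summed to 302 to 435 CPM in blood and 2227 to 2982 in bone marrow. All 8 were called lower in blood in both genotypes (list medians -3.64 in control and -4.25 in knockout mice). The part of precursor cells in the differences between tissues was not tested. In control mice 4 of the 9 members were higher in blood (edgeR quasi-likelihood test, Benjamini-Hochberg adjusted p under 0.05 over 13669 genes), where 16.2% of all genes tested were called higher and 34.2% were called in either direction, and none of the other members was called. In knockout mice the same 4 genes, Fcgr4, C5ar1, Fcgr2b and Fcer1g, were higher, beside 23.5% of all genes, and 1 member, C3ar1, was lower, beside 24.1%. The libraries of the 2 tissues did not overlap for 5 of 9 members in either genotype, where 50.1% of genes did not overlap in control and 60.0% in knockout mice. Both comparisons are between tissues within a genotype and share no library. They are not independent, since same-numbered blood libraries of the 2 genotypes deviated together and the preparation differed between tissues in both. Scaling by library size alone changed the split of calls over all genes from 2212 higher and 2466 lower to 1308 and 3906 in control mice, and from 3256 and 3336 to 2258 and 4333 in knockout mice, and moved the median of all genes to -0.31 and -0.24. The median log2 fold change of the 9 members was 0.52 in control and 0.45 in knockout mice, against -0.0029 and -0.010 over all genes tested. In bulk RNA, fewer cells of a type and less RNA per cell cannot be told apart.

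Fcgr4 encodes a receptor for IgG2a and IgG2b and showed the largest difference of the 9 members in both genotypes. Its levels in control mice were 4.23, 5.17 and 7.82 CPM in bone marrow and 33.4, 31.8 and 24.1 in blood. In knockout mice they were 4.74, 4.42 and 9.58 CPM in bone marrow and 53.2, 43.8 and 30.8 in blood. Every blood library was thus above every bone marrow library, with bone marrow library 3 the highest of its group in both genotypes. The difference was 5.14-fold in control mice (log2 fold change 2.36 ± 0.27 SE, 95% interval 1.74 to 2.98, edgeR adjusted p = 0.000386). In knockout mice it was 6.91-fold (2.79 ± 0.33, 2.04 to 3.54, edgeR adjusted p = 0.000208). Fcgr4 is also known from non-classical monocytes and from neutrophils, which the Ly6G antibody was meant to remove. Of 12 monocyte and macrophage markers 6 were called higher and 1 lower in control blood, and 5 higher and 3 lower in knockout blood, with list sums of 2204 to 2640 CPM in blood and 1953 to 2307 in bone marrow. The markers moved in both directions within this sum. Csf1r, the receptor for the growth factor CSF1, was higher in blood, at 877 ± 36.2 against 274 ± 22.6 CPM in control and 837 ± 45.6 against 268 ± 21.4 in knockout mice (SD, n = 3, edgeR adjusted p = 0.000111 and 1.83e-05). Adgre4, an adhesion receptor of monocytes and macrophages, was higher as well, at 459 ± 15.4 against 208 ± 24.8 CPM and 425 ± 105 against 161 ± 16.5 (edgeR adjusted p = 0.000987 and 0.000337). Ly6c2, a marker of classical monocytes, had the means 814 and 1095 CPM in control blood and bone marrow (edgeR adjusted p = 0.180) and was lower in knockout blood, at 658 against 1237 (edgeR adjusted p = 0.00204). These 3 markers were named after their values had been seen. The 10 neutrophil markers summed to 13300 to 20505 CPM in blood and 20466 to 29025 in bone marrow. Of these, 0 were called higher and 4 lower in control blood, and 1 higher and 6 lower in knockout blood. Their means did not move together. In control mice Elane went from 521 CPM in bone marrow to 0.928 in blood, and Retnlg from 4752 to 6676. In knockout mice Elane went from 648 to 0.728 and Retnlg from 4177 to 6581. Both were named after their values had been seen. The part of these cells in the Fcgr4 level was not tested.

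C5ar1, the signalling receptor for C5a, was the second. Control mice had 51.0, 46.5 and 45.4 CPM in bone marrow and 140.3, 103 and 169 in blood, and knockout mice 32.3, 38.1 and 53.5 in bone marrow and 112, 115 and 149 in blood. The lowest blood library was above the highest bone marrow library in each genotype. C5ar1 was 2.86-fold higher in control blood (log2 fold change 1.52 ± 0.20, 95% interval 1.06 to 1.97, edgeR adjusted p = 0.000736) and 3.06-fold higher in knockout blood (1.61 ± 0.20, 1.15 to 2.08, edgeR adjusted p = 0.000300). The monocyte and neutrophil markers given above differed between tissues in both directions. The part of these cells in the C5ar1 level was not tested.

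The inhibitory receptor Fcgr2b and the gamma chain Fcer1g were also higher in blood in both genotypes. Fcgr2b stood at 334, 272 and 277 CPM in control bone marrow against 447, 687 and 695 in control blood, and at 268, 250.3 and 323 in knockout bone marrow against 497, 723 and 660.1 in knockout blood. The blood libraries numbered 1 were the lowest of their groups and still above all bone marrow libraries. The difference was 2.05-fold in control mice (log2 fold change 1.04 ± 0.21, 95% interval 0.57 to 1.51, edgeR adjusted p = 0.00553) and 2.26-fold in knockout mice (1.17 ± 0.17, 0.79 to 1.56, edgeR adjusted p = 0.000649). Of the B cell markers, 2 of 6 tested were called higher in control blood and 5 of 8 in knockout blood, and 0 were called lower. The part of B cells and other cells in the Fcgr2b level was not tested.

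Fcer1g stood at 431, 462 and 398 CPM in control bone marrow and at 538, 873 and 932 in control blood. In knockout mice it stood at 466, 366 and 405 CPM in bone marrow and at 598, 952 and 785 in blood. The groups did not overlap, although control blood library 1 lay closer to bone marrow than to the other control blood libraries. Fcer1g was 1.80-fold higher in control blood (log2 fold change 0.85 ± 0.22, 95% interval 0.34 to 1.35, edgeR adjusted p = 0.0180) and 1.91-fold higher in knockout blood (0.93 ± 0.18, 0.52 to 1.35, edgeR adjusted p = 0.00306). The control call was lost when library size alone was used for scaling (0.54, adjusted p = 0.0848). It was also lost without control blood library 2 (0.76, adjusted p = 0.0583) or without control bone marrow library 1, 2 or 3 (0.84, 0.90 and 0.78, adjusted p = 0.0702, 0.0587 and 0.0946), while over 15 alternatives the adjusted p ranged from 0.000170 to 0.0946. NK cells express Fcer1g and Fcgr3 as well, and all 6 NK cell markers were called higher in blood in both genotypes, with Gzma, a granzyme, at 291 ± 112 CPM in control and 301 ± 43.5 in knockout blood (SD, n = 3) against 2.10 ± 0.768 and 1.90 ± 0.522 in bone marrow. The part of NK cells in these levels was not tested.

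**Figure D3:**
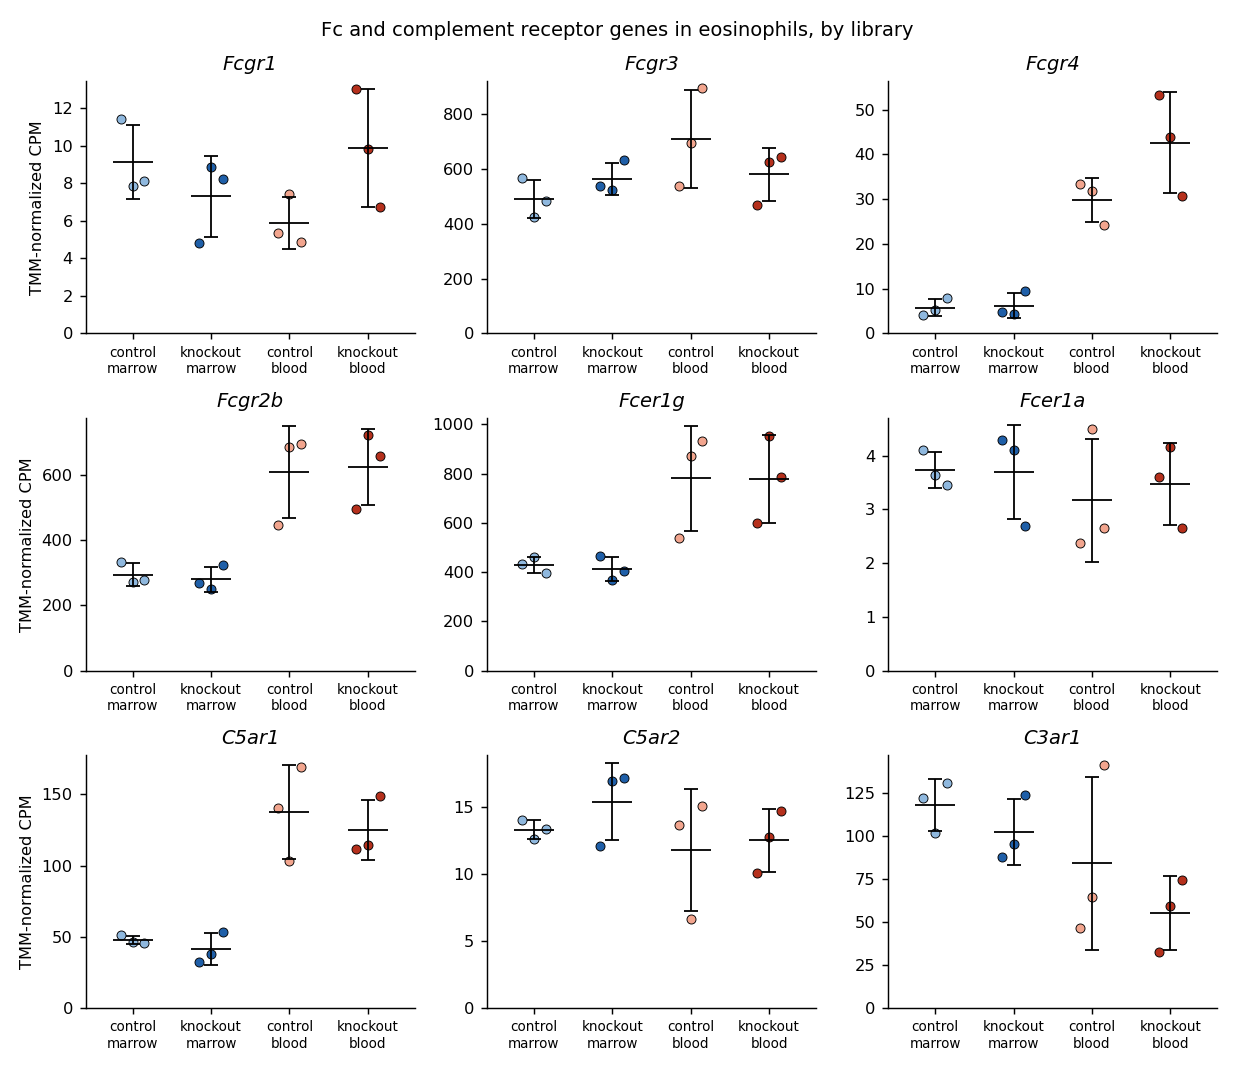
Level of each of the 9 members (TMM-normalized CPM, axis from 0) by library in the 4 groups, with points for the 3 libraries and bars for the mean and SD. Fcgr4, C5ar1, Fcgr2b and Fcer1g are higher in every blood library than in every bone marrow library, and the knockout and control points overlap for all 9 genes in both tissues.

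Fcgr3, the most abundant of the activating IgG receptors, was not called in either genotype. In control mice it stood at 564, 425 and 482 CPM in bone marrow and at 538, 693 and 895 in blood. In knockout mice the values were 536, 524 and 630.3 in bone marrow and 467, 626 and 644 in blood. The tissues overlapped in both genotypes. The log2 fold change was 0.52 ± 0.22 in control mice (95% interval 0.03 to 1.01, edgeR adjusted p = 0.0935) and 0.05 ± 0.16 in knockout mice (-0.30 to 0.41, edgeR adjusted p = 0.803). The control difference was called by DESeq2 (0.55, adjusted p = 0.0420), in a fit of 12 libraries (0.53, adjusted p = 0.0445) and without control blood library 1 (0.69, adjusted p = 0.00716), and over its 15 alternatives the adjusted p ranged from 0.00716 to 0.477.

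C3ar1, the C3a receptor, varied most among the blood libraries relative to its mean. It stood at 122, 102 and 131 CPM in control bone marrow and at 46.6, 64.3 and 142 in control blood, so that control blood library 3 was above all control bone marrow libraries and libraries 1 and 2 were below them. In knockout mice it stood at 87.9, 95.3 and 124 CPM in bone marrow and at 32.2, 59.1 and 74.6 in blood, without overlap. In knockout mice C3ar1 fell by 0.88 ± 0.27 on the log2 scale, with a 95% interval of -1.50 to -0.26 and an edgeR adjusted p = 0.0265. This call was lost in a fit of 12 libraries (-0.89, adjusted p = 0.0631) and without knockout blood library 2 (-0.93, adjusted p = 0.0631), knockout bone marrow library 2 (-0.94, adjusted p = 0.0571) or knockout bone marrow library 3 (-0.73, adjusted p = 0.104), and over its 15 alternatives the adjusted p ranged from 0.000902 to 0.104. In control mice the log2 fold change was -0.50 ± 0.36 (95% interval -1.32 to 0.31, edgeR adjusted p = 0.311), and without control blood library 3 it was -1.09 (adjusted p = 0.00716, range over its alternatives 0.00716 to 0.573).

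The 3 members of low level were not called in either genotype. Fcgr1 stood at 11.4, 7.86 and 8.15 CPM in control bone marrow and at 5.37, 7.43 and 4.86 in control blood, where every blood library was lower. Its log2 fold change was -0.64 ± 0.28 (95% interval -1.28 to -0.01, edgeR adjusted p = 0.107). With library size alone it was -0.95 (adjusted p = 0.0299, range over the alternatives 0.0299 to 0.327), and the median of all genes was then -0.31. In knockout mice Fcgr1 stood at 4.84, 8.86 and 8.25 CPM in bone marrow and 13.03, 9.84 and 6.75 in blood, with overlap, and the log2 fold change was 0.45 ± 0.31 (-0.26 to 1.16, edgeR adjusted p = 0.267).

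Fcer1a was between 2.38 and 4.49 CPM in all 12 libraries, with log2 fold changes of -0.24 ± 0.35 in control (95% interval -1.03 to 0.54, edgeR adjusted p = 0.620) and -0.07 ± 0.31 in knockout mice (-0.77 to 0.63, edgeR adjusted p = 0.864). Ms4a2, the beta chain that joins Fcer1a and Fcer1g in the IgE receptor of mast cells and basophils, was lower in blood, from 23.5 ± 2.58 to 4.86 ± 0.481 CPM in control and from 20.8 ± 4.49 to 5.69 ± 1.44 in knockout mice (SD, n = 3). The 10 basophil and mast cell markers summed to 241 to 508 CPM in blood and 456 to 567 in bone marrow. Of the 9 of them tested 6 were called lower and 1 higher in control blood, and 8 lower and 1 higher in knockout blood. The part of basophils in the Fcer1a level was not tested.

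C5ar2 stood at 13.997, 12.6 and 13.4 CPM in control bone marrow and at 13.7, 6.60 and 15.1 in control blood, and at 12.1, 16.97 and 17.1 in knockout bone marrow and 10.03, 12.7 and 14.7 in knockout blood. The groups overlapped in both genotypes. Its log2 fold changes were -0.19 ± 0.30 (95% interval -0.88 to 0.50, edgeR adjusted p = 0.658) and -0.29 ± 0.22 (-0.78 to 0.20, edgeR adjusted p = 0.304).

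**Figure D4:**
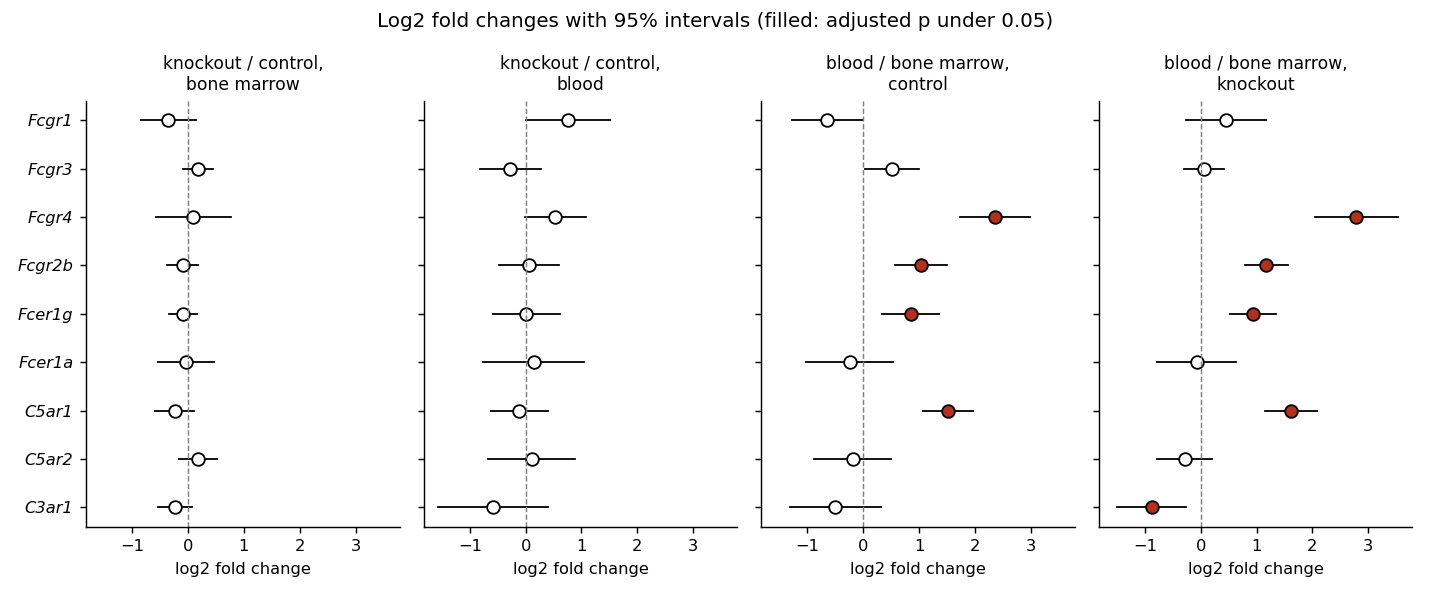
Log2 fold change of each member (points) with its 95% interval (lines) in the 4 comparisons, filled where the adjusted p was under 0.05. The knockout comparisons hold no filled point, and Fcgr4, C5ar1, Fcgr2b and Fcer1g are filled on the right of 0 in both tissue comparisons.

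The comparison of Atg5-knockout with control eosinophils asks whether loss of the autophagy gene changes these receptors. In bone marrow 0 of 9 members were called by edgeR, by DESeq2 and by limma-voom, beside 0.348% of 13781 genes by edgeR. Of the members 0 had an unadjusted edgeR p under 0.05, beside 1333 of the 13781 genes. The knockout and control libraries overlapped for all 9 members, where 14.4% of all genes did not overlap. The lowest adjusted p was that of C3ar1 (log2 fold change -0.23 ± 0.14, 95% interval -0.54 to 0.07, edgeR adjusted p = 0.636). The intervals limit what could have been missed. For Fcgr3, with a log2 fold change of 0.17, the interval ran from -0.10 to 0.44, for Fcgr2b (-0.10) from -0.37 to 0.18, and for Fcer1g (-0.09) from -0.35 to 0.17. They were wider for Fcgr1, at -0.35 with an interval of -0.85 to 0.15, and for Fcgr4, at 0.09 with -0.58 to 0.76. The other members were C5ar1 at -0.24 (-0.59 to 0.11), C5ar2 at 0.18 (-0.16 to 0.51) and Fcer1a at -0.04 (-0.54 to 0.46).

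In blood 0 of 9 members were called by edgeR, by DESeq2 and by limma-voom, and 1 had an unadjusted edgeR p under 0.05, beside 347 of 13460 genes. Of 13460 genes 0.0371% were called, which is 5 genes, and 7.58% did not overlap between genotypes, as against 0 of the 9 members. The same-numbered blood libraries of the 2 genotypes deviated together, and with the number as a block 10 genes were called and still 0 members. Fcgr1 had the largest log2 fold change of the members, 0.76 ± 0.33 (95% interval 0.01 to 1.51, edgeR adjusted p = 0.99997). Its knockout libraries stood at 13.03, 9.84 and 6.75 CPM against 5.37, 7.43 and 4.86 in control blood, and each was above the control library of its own number. Fcgr4 was also higher in each knockout library than in the control library of its number, by 1.59-, 1.38- and 1.28-fold, with a log2 fold change of 0.53 ± 0.24 (-0.02 to 1.09, edgeR adjusted p = 0.99997). With the block the adjusted p were 0.611 for Fcgr1 and 0.518 for Fcgr4, each the lowest of a range over the alternatives that reached 0.999999.

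Fcgr3 and C3ar1 had the lower values in all 3 knockout blood libraries by number, at 0.868, 0.903 and 0.719 of control for Fcgr3 and at 0.691, 0.919 and 0.527 for C3ar1. The log2 fold changes were -0.27 ± 0.24 for Fcgr3 (95% interval -0.81 to 0.27) and -0.58 ± 0.43 for C3ar1 (-1.57 to 0.40). The C3ar1 value turned to 0.02 without control blood library 3. The remaining members were Fcgr2b at 0.06 (-0.48 to 0.60), Fcer1g at 0.01 (-0.59 to 0.61), Fcer1a at 0.14 (-0.76 to 1.05), C5ar1 at -0.12 (-0.63 to 0.40) and C5ar2 at 0.11 (-0.67 to 0.88). All intervals in blood were wider than those of the same gene in bone marrow, apart from that of Fcgr4. The biological coefficient of variation fitted over all genes was 0.365 in blood and 0.146 in bone marrow.

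Whether the knockout effect differed between blood and bone marrow was tested with the interaction over 12 libraries. It was called for 0 of 9 members by edgeR and by DESeq2, with 1 unadjusted edgeR p under 0.05, beside 0% of 14712 genes, 740 of which had an unadjusted p under 0.05. The largest was Fcgr1, where the log2 fold change in blood exceeded that in bone marrow by 1.07 ± 0.43 (95% interval 0.13 to 2.0, edgeR adjusted p = 0.942). Fcgr3 came next by p, with a difference of -0.49 ± 0.28 (-1.09 to 0.10, edgeR adjusted p = 0.942). The differences of Fcgr4 (0.40, -0.56 to 1.36) and C3ar1 (-0.40, -1.50 to 0.69) had wide intervals.

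The ratio of 2 members within a library does not depend on how libraries are scaled, but its size depends on the gene lengths used. The exon lengths were 5790 bases for Fcgr2b and 1736 for Fcgr3, while their canonical transcripts have 3403 and 1545 bases. In CPM, without a length, the means in knockout blood were 627 for Fcgr2b and 579 for Fcgr3. The fold difference of a ratio between groups does not depend on the lengths. For Fcgr3 over Fcgr2b, the activating over the inhibitory low-affinity IgG receptor, the RPKM ratio was 5.63, 5.21 and 5.80 in control and 6.68, 6.98 and 6.50 in knockout bone marrow. In blood it was 4.01, 3.36 and 4.30 in control and 3.13, 2.89 and 3.25 in knockout mice. The knockout libraries were thus all above the control libraries in bone marrow and all below them in blood, and both blood groups were below both bone marrow groups. For C5ar1 over C5ar2 the ratio was 4.71 to 5.12 in control and 3.11 to 4.33 in knockout bone marrow, and 14.2 to 21.7 and 12.5 to 15.4 in blood. The tissues were separate in both genotypes, and the genotypes were separate in bone marrow and overlapped in blood.

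These 2 ratios, chosen after the levels of the members had been seen, gave 10 two-sided exact permutation tests on the log2 ratios. With 3 against 3 libraries the smallest p an exact permutation test allows is 0.1, which was reached in every such test apart from knockout against control in blood for C5ar1 over C5ar2 (exact permutation p = 0.2). How far the knockout effect differed by tissue was tested by exact permutation of genotype within each tissue over 400 arrangements, with p = 0.005 for Fcgr3 over Fcgr2b, the smallest possible in this scheme, and an exact permutation p = 0.655 for C5ar1 over C5ar2. Adjusted over the 10 tests (Benjamini-Hochberg), the former was 0.05, which does not lie under the threshold of 0.05. This scheme ignores the pairing of the blood libraries by number, which the labels do not state and which was taken from their shared deviations. With blood libraries exchanged only within a number, an alternative added after seeing the data, 160 arrangements remained, and the exact permutation p for Fcgr3 over Fcgr2b was 0.0125, the smallest these allow (adjusted 0.125 over the 10 tests). In blood alone the exact permutation p within pairs was 0.25, the smallest that 8 arrangements allow. The effect on the Fcgr3 to Fcgr2b ratio was 1.21-fold upward in bone marrow and 1.25-fold downward in blood. These 2 genes share the run of bases shown above, so reads from it can have been lost from both or given to either.

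**Figure D5:**
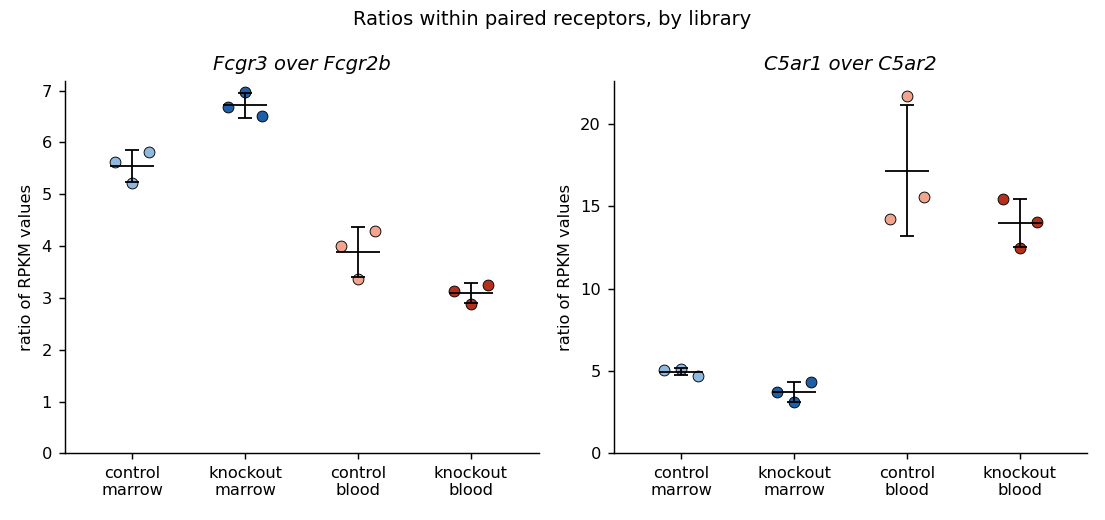
Ratio of RPKM values of Fcgr3 over Fcgr2b (left) and C5ar1 over C5ar2 (right) by library in the 4 groups, axes from 0, with bars for the mean and SD of 3 libraries. The Fcgr3 over Fcgr2b ratio is 6.50 to 6.98 in knockout against 5.21 to 5.80 in control bone marrow, and 2.89 to 3.25 against 3.36 to 4.30 in blood.

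The spread of members within groups was compared as a description, from the deviations of log2 CPM from the 4 group means over 12 libraries. Among the 36 pairs of members Pearson's r was highest for Fcgr3 with C3ar1 (0.921) and Fcgr2b with Fcgr3 (0.907), and lowest for Fcer1a with C5ar1 (-0.845). Of 12177 genes with a mean of at least 1 CPM, those most like Fcgr3 were Cfap53, Cptp and Fgfr1 (r = 0.977, 0.960 and 0.958). Those most like Fcgr2b were Aldoa, Snx20 and Mboat7 (0.976, 0.9748 and 0.972), and those most like Fcer1g were Cyb5a, S100a13 and Tmbim4 (0.982, 0.980 and 0.979). Fcgr4 was nearest to Sfxn5, Zfp579 and Gm15832 (0.874, 0.869 and 0.861), Fcgr1 to Safb2, Tapbpl and Socs5 (0.926, 0.907 and 0.885) and Fcer1a to Gipc1, Emg1 and Galk2 (0.972, 0.962 and 0.936). Atxn1 and Gatad2a were among the 3 genes nearest to C5ar1 (0.929 and 0.927), and C5ar2 was nearest to Mafg, Phf3 and Pitpnc1 (0.980, 0.951 and 0.948) and C3ar1 to Mdh2, Birc3 and Rassf5 (0.973, 0.962 and 0.957). All points share 12 libraries, among them the blood libraries numbered 1 with their own cell mixture. The nearest genes were picked as the highest among 12177, so a high r is in part a result of that choice. Fcgr2b and Fcgr3 also share the run of bases shown above.

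Genes that work beside the members were followed as 5 lists. In the knockout comparisons edgeR called 0 genes of the 5 lists in either tissue. In bone marrow 1 or 2 genes of each list had an unadjusted p under 0.05, beside 1333 of all 13781 genes tested. In blood 1 gene each of the complement receptor and regulator list and of the G protein list did, beside 347 of 13460. DESeq2 called 1 gene in bone marrow, of the complement receptor and regulator list. Without control bone marrow library 1 that list and the G protein list had 1 call each, as they and the Fc receptor list did without a filter on low counts. Between tissues 34.2% of all genes tested were called in either direction in control and 47.6% in knockout mice, and the list counts are descriptions to be read beside these shares. Of the other Fc receptors and partner chains, 3 of 9 tested were higher and 2 lower in control blood, with a list median of 1.15, and 8 of 11 higher and 2 lower in knockout blood, with a list median of 1.45. In control mice these were led by Cd247, the zeta chain of T and NK cells (log2 fold change 4.84 ± 0.79, edgeR adjusted p = 0.00215, from 0.239 to 6.87 CPM), Ms4a2 (-2.28 ± 0.21, edgeR adjusted p = 9.84e-05) and Tyrobp, an ITAM chain of myeloid and NK cells (1.15 ± 0.20, edgeR adjusted p = 0.00316, from 1674 to 3753 CPM). In knockout mice they were led by Fcmr, the IgM receptor (6.56 ± 1.53, edgeR adjusted p = 0.00707, from 0.102 to 9.95 CPM), Fcer2a, the low-affinity IgE receptor of B cells (6.13 ± 1.42, edgeR adjusted p = 0.00700, from 0.0885 to 6.53 CPM), and Cd247 (5.44 ± 0.59, edgeR adjusted p = 0.000135). The B, T and NK cell sums given above moved with them, and their part was not tested. In control mice the list's count of 5 called genes became 10 without control blood library 3, in a fit of 12 libraries or without a filter on low counts, 9 with DESeq2 and 3 without control bone marrow library 1, and the knockout count of 10 became 6 with limma-voom.

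Of 26 genes of ITAM and ITIM signalling, all tested, 11 were higher and 0 lower in control blood (list median 0.48), and 15 higher and 2 lower in knockout blood (0.51). Dok2, an adaptor that restrains tyrosine kinase signalling, was called in both genotypes (2.09 ± 0.18, edgeR adjusted p = 7.74e-05, and 1.94 ± 0.15, edgeR adjusted p = 2.25e-05), as was the Src-family kinase Fyn (1.70 ± 0.37 and 1.47 ± 0.24, edgeR adjusted p = 0.00780 and 0.00129). Syk, the kinase that binds the phosphorylated ITAM, rose from 393 to 753 CPM in control mice (0.93 ± 0.25, edgeR adjusted p = 0.0217), and Lat, an adaptor of T cells and mast cells, from 2.10 to 16.5 CPM in knockout mice (2.99 ± 0.75, edgeR adjusted p = 0.0101). The control count of 11 fell to 6, 4 and 2 without control bone marrow library 1, 2 or 3, and to 5 with library size alone. The knockout count of 17 was 11 without knockout bone marrow library 2.

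Among the partners of the anaphylatoxin receptors, 8 of 20 genes of G protein signalling were higher and 1 lower in control blood (list median 0.41), and 11 of 20 were higher and 0 lower in knockout blood (0.40). Rgs1, which shortens G protein signalling, rose from 2.38 to 76.6 CPM in control (4.99 ± 0.54, edgeR adjusted p = 0.000276) and from 2.34 to 161 CPM in knockout mice (6.11 ± 0.26, edgeR adjusted p = 8.69e-07). Pik3r5, a regulatory subunit of the lipid kinase PI3K gamma, rose as well (1.36 ± 0.21, edgeR adjusted p = 0.00179, and 1.73 ± 0.16, edgeR adjusted p = 6.57e-05), and so did the receptor kinase Grk5 (0.99 ± 0.19, edgeR adjusted p = 0.00498, and 1.19 ± 0.15, edgeR adjusted p = 0.000251). The control count of 9 was 5 without control bone marrow library 2 and 4 without library 3, and the knockout count of 11 was 6 and 7 without knockout bone marrow library 1 or 2.

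Of the other complement receptors and regulators, 4 of 12 tested were higher and 2 lower in blood in each genotype, with list medians of 0.46 in control and 0.35 in knockout mice. The share called in knockout mice was close to that of all genes. Itgax, the alpha chain of complement receptor CR4, was the largest, at 3.13 ± 0.18 (edgeR adjusted p = 1.16e-05) and 2.79 ± 0.17 (edgeR adjusted p = 6.34e-06). C1qbp (-1.89 ± 0.17, edgeR adjusted p = 0.000104, and -1.45 ± 0.19, edgeR adjusted p = 0.000348) and Cd93 (-1.55 ± 0.43, edgeR adjusted p = 0.0224, and -1.81 ± 0.27, edgeR adjusted p = 0.000702) were lower in blood. Among complement components C3, the source of C3a, went from 435 to 230.0 CPM in knockout mice (-0.90 ± 0.31, edgeR adjusted p = 0.0384). In control mice 2 of 8 components tested were higher and 2 lower (list median -0.48). C1qa (-2.23 ± 0.69, edgeR adjusted p = 0.0345) and Hc, the gene of C5 (-1.97 ± 0.53, edgeR adjusted p = 0.0203), were lower and C1qb (1.27 ± 0.40, edgeR adjusted p = 0.0369) was higher, all at a mean of at most 3.00 CPM. In knockout mice 1 was higher, C1ra (0.89 ± 0.25, edgeR adjusted p = 0.0155), and 2 were lower, C1qa (-2.40 ± 0.67, edgeR adjusted p = 0.0164) and C3 (list median -0.93). The 4 control calls became 2 with library size alone, without a filter or with the replicate number as a block, 1 without control blood library 2 and 0 without any one of the control bone marrow libraries, and the 3 knockout calls became 5 without knockout blood library 1 and 0 and 1 without knockout bone marrow library 2 or 3.

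The promoter windows of the member with the largest rise in blood and of the one that fell are shown, from RefSeq on GRCm38.p6, as the 250 bases before the start on the strand of the gene. The 3 motifs searched, on both strands and after the values had been seen, were GAGGAA, a core bound by PU.1, GATAA, a core bound by GATA factors, and TTCNNNGAA, bound by STAT factors. They occur in 23.3%, 22.6% and 7.02% of 32851 promoter windows of this length. Capitals mark the matches, which are PU.1 in Fcgr4 and 2 GATA matches in C3ar1.
Fcgr4 (chr1:171018676-171018925, plus strand): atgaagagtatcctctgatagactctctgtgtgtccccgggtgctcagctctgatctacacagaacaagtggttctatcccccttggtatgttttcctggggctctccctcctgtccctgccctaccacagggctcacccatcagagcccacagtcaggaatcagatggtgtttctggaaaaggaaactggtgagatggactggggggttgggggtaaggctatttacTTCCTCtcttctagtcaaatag
C3ar1 (chr6:122856158-122856407, minus strand): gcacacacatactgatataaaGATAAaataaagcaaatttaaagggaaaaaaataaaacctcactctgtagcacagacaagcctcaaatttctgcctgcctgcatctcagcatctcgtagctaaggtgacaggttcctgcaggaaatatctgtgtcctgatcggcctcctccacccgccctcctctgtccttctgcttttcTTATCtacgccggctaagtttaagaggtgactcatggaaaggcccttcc
Of the 4 members that were higher in blood in both genotypes, only Fcgr4 held a match to any of the 3 motifs. Among the others, Fcgr3, Fcer1a and 1 of 2 windows of C5ar2 held a PU.1 match, Fcer1a a GATA match, and Fcgr1 a match to each of the 3. A match describes letters in this window and shows no binding.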

How the data were processed

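Eosinophil mRNA was sequenced as stranded TruSeq libraries, single-end, and aligned by the authors with HISAT2 (version 2.2.1). The deposited values are raw counts per gene, made by the authors with featureCounts 2.0.1. The file header names an Ensembl release 92 annotation of GRCm38, while the study's methods name GRCm39; the coordinates given are those of the file. The header names no strand option, so antisense reads would be counted with a gene. The members' exons overlap 2 other genes, Gm38204 (155 bases of Fcgr2b, at most 11 counts) and Gm26473 (127 bases of C5ar2, 0 counts).

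Symbols came from GENCODE by Ensembl identifier (49674 of 53801 matched, and all 9 members). Genes passing filterByExpr (minimum count 10, total 15) were tested with edgeR 4.0.16 (R 4.3.3; quasi-likelihood, TMM) in the 6 libraries compared, with an interaction over 12, and Benjamini-Hochberg adjustment over all genes. All 9 members passed in each comparison. Levels are TMM-scaled CPM, and RPKM uses the exon length in the file. DESeq2 1.42.0, limma-voom (limma 3.58.1), other scalings and filters, a 12-library fit, a replicate block and leaving out each library were alternatives. The median fold estimates of the test were checked on simulated counts with 200 changed genes. These counts had the same dispersion for all genes, below that fitted in every comparison apart from knockout against control in bone marrow. They therefore do not check false calls or power at the spread of these data. Same-numbered blood libraries of the 2 genotypes deviated together (r = 0.499, 0.208 and 0.298), so their numbers were taken to pair them. The r was also positive for knockout blood library 2 with control blood library 3 (0.137) and for knockout 3 with control 2 (0.121). The pairing is thus clearest for the blood libraries numbered 1, whose r with other numbers was -0.408 to -0.242. In the other comparisons at least 1 same-numbered pair had r below 0.1. Replicates differed by more than sampling noise (chi-square per degree of freedom of at least 15.6). The members, lists and tests were chosen with earlier results of these data known. Named genes were all members, up to 3 called genes of largest change per list and comparison, and the 3 genes most like each member, 1 of which is not reported here. Fcer1a had the fewest counts of the members, at 39 to 135 per library, and intervals cover the spread between libraries.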

Additional observations from a re-analysis of the deposited data

Results flagged for a closer look

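The effect of the knockout on the ratio of Fcgr3 to Fcgr2b went in opposite directions in the 2 tissues. Every knockout library was above every control library in bone marrow and below every control library in blood. On the log2 scale the effect was 0.28 in bone marrow and -0.33 in blood. Within each tissue alone the exact permutation p was 0.1, the smallest possible (adjusted p = 0.125). The difference of the 2 effects was -0.60 (exact permutation of genotype within tissues, two-sided, p = 0.005, the smallest of 400 arrangements, adjusted p = 0.05 over 10 tests). That permutation takes genotype to have no effect in either tissue, so its p does not by itself show that the effects differ. With blood libraries exchanged only within a number, since the numbers were taken to pair them, the exact permutation p was 0.0125, the smallest of 160 arrangements (adjusted p = 0.125). Without any 1 of the 12 libraries the difference was -0.70 to -0.53. Its direction could not turn in this check, since the genotypes did not overlap in either tissue. In the edgeR interaction test neither gene was called on its own, with -0.49 for Fcgr3 (edgeR adjusted p = 0.942) and 0.11 for Fcgr2b (edgeR adjusted p = 0.980). The pair was chosen after the levels of the members had been seen, and the part of shared reads in the ratio was not tested.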

How the results depend on the processing

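The number of members called was within 1.5 times the reported number under all alternatives run, apart from the study's additional threshold of a log2 fold change beyond 2, which left 1 member, Fcgr4, in each tissue comparison. No member was called in either knockout comparison or in the interaction under any alternative run. The calls of Fcgr4, C5ar1 and Fcgr2b in both tissue comparisons and of Fcer1g in knockout mice were kept in all 15 alternatives, among them the omission of the blood libraries numbered 1, an alternative chosen after seeing the data. Within a genotype this omission is the same fit as leaving out its blood library 1, so it is no further check of these calls. The log2 fold changes of these calls lay between 2.05 and 2.64 (control) and 2.57 and 3.22 (knockout) for Fcgr4, 1.20 and 1.69 and 1.38 and 1.83 for C5ar1, and 0.73 and 1.22 and 0.94 and 1.31 for Fcgr2b. The changed calls of Fcer1g, Fcgr3, C3ar1 and Fcgr1 are given with their values above. The replicate block changed no call of a member, and the numbers were taken to pair the blood libraries of the 2 genotypes only. Over all genes it moved the calls from 5 to 7 higher and 3 lower in blood, and from 20 higher and 28 lower to 11 and 12 in bone marrow, where the libraries share only a number.

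Signs turned only for members that were not called. In blood, knockout against control, Fcer1g was -0.024 without a filter on low counts, -0.0058 in the fit of 12 libraries and -0.041 without the blood libraries numbered 1, where Fcer1a was -0.054. In knockout mice, blood against bone marrow, Fcgr3 was -0.19 with library size alone and -0.010 without a filter. Without the blood libraries numbered 1 the interaction was -0.027 for Fcer1a and 0.16 for C5ar2. Leaving out 1 library gave ranges across 0 as follows. In bone marrow, knockout against control, they were -0.36 to 0.38 for Fcgr4 and -0.16 to 0.13 for Fcer1a. In blood, knockout against control, they were -0.12 to 0.19 for Fcgr2b, -0.20 to 0.16 for Fcer1g, -0.024 to 0.48 for Fcer1a, -0.29 to 0.064 for C5ar1, -0.18 to 0.33 for C5ar2 and -0.87 to 0.018 for C3ar1. Between tissues they were -0.40 to 0.10 for C5ar2 in control mice, and -0.030 to 0.18 for Fcgr3 and -0.27 to 0.084 for Fcer1a in knockout mice. For the interaction they were -0.074 to 0.28 for Fcgr2b, -0.16 to 0.24 for Fcer1g, -0.048 to 0.48 for Fcer1a, -0.10 to 0.30 for C5ar1, -0.42 to 0.10 for C5ar2 and -0.69 to 0.20 for C3ar1. The cause of these changes was not tested. Library size alone moved the median of all genes by over 0.2 between tissues.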
